A study of Homo sapiens with 8 samples.

Results

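The 10 genes described here encode enzymes that make asparagine (ASNS), serine (PHGDH, PSAT1, PSPH), proline (PYCR1, ALDH18A1) and cysteine (CTH), or that make or oxidise mitochondrial one-carbon units (SHMT2, MTHFD2, ALDH1L2). They were grouped by function and chosen with earlier results of these data known. Each was represented by the probe set that the platform annotation assigned to that gene alone and that had the highest mean over the arrays. All 10 had such a probe set among the 17958 genes so covered, and all 10 passed the filter on low signal that left 12570 genes for testing. Total RNA came from HEL, a human erythroleukaemia line that carries an activating JAK2 mutation, and was hybridised to 8 Affymetrix arrays. Cells had been kept for 48 h with DMSO alone (control), with 0.5 µM LY2784544, with 20 µM GRN163L, or with both agents (combination). LY2784544 is a small-molecule JAK2 inhibitor, and GRN163L is a lipid-linked oligonucleotide that binds the RNA template of telomerase. Every group of the 4 had 2 arrays, and the experiment was conducted 2 times, with 1 array of each group per experiment. The labels do not restate the doses of the combination, so reading it against 1 agent takes them to be those used alone. One cell line and 1 time point were studied, and nothing beyond the separate experiments is said of the cultures, so p-values reflect only the spread among these arrays.

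Asparagine synthetase transfers an amino group from glutamine to aspartate. Serine is made from a glycolytic intermediate in 3 steps, and its conversion to glycine in mitochondria by SHMT2 supplies the folate-bound one-carbon units that MTHFD2 and ALDH1L2 oxidise. Proline is made from glutamate through ALDH18A1 and PYCR1, and CTH cleaves cystathionine to cysteine. As background, many of these genes are known targets of ATF4, the transcription factor whose translation increases in the integrated stress response, when the kinases that phosphorylate eIF2α are active. ATF4 with a C/EBP partner binds a composite element in such promoters, ASNS among them. MYC, which binds the E-box, is another known activator of serine and one-carbon genes.

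Promoter sequence is shown for the gene with the largest change against control among the 10 (ASNS) and for the pair that passed the test (PSAT1 and ALDH18A1). The 250 bases before the transcription start were taken from RefSeq (GRCh38.p14), in which 6 of the 10 genes were matched, ASNS with 2 starts. They were searched on both strands for TGATGNAA, the core of the C/EBP-ATF element, and for CACGTG, the palindromic E-box. These motifs do not overlap each other. Capitals mark the matches, and each sequence is written 5′ to 3′ on the strand of the gene.
ASNS, chr7:97872409-97872658, minus strand: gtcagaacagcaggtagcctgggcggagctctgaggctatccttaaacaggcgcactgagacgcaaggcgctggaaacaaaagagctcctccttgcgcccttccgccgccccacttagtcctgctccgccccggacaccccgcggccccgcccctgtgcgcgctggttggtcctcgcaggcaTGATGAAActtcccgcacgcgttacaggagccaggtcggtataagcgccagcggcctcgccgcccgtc
PSAT1, chr9:78296875-78297124, plus strand: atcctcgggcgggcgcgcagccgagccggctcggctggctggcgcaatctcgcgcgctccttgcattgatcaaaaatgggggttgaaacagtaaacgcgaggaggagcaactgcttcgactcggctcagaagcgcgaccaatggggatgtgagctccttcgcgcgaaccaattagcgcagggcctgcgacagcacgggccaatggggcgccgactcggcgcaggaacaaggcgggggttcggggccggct
ALDH18A1, chr10:95656712-95656961, minus strand: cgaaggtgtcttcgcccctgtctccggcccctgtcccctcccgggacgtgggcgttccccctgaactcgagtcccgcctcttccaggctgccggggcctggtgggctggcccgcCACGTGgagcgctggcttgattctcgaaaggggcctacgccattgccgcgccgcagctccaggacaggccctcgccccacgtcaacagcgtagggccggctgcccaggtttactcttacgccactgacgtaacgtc
The upstream ASNS start had 1 match to the C/EBP-ATF core, TGATGAAA, from 68 to 61 bases before the start, in the same orientation as the gene. That core was found in 3.14% of the 35116 windows of this length in the table and, of the 6 matched genes, only in ASNS. ALDH18A1 had 1 E-box, from 136 to 131 bases before the start, a motif found in 6.34% of all windows. PSAT1 had neither string of letters in this window. A match is a description of sequence, and no binding was measured.

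ASNS, PSAT1 and PSPH had higher signals on all 6 treated arrays than on either control array, and ALDH18A1 had lower ones. The share of all genes separated in this way was not counted, and every treated group is set against the same control arrays. A looser pattern, higher than control in both experiments with each treatment, was shown by 5 of the 10 and by 7.65% of all genes. With LY2784544, PSAT1 rose 2.58-fold. With the combination, ALDH18A1 fell to a level 1.96-fold below control. Without a block for the experiment these were the only calls among the 10 in 7 comparisons, which were fitted with limma over all 12570 genes and called at a Benjamini-Hochberg adjusted p below 0.05. For LY2784544, 1 of 10 genes was called higher and 0 lower, beside 0.39% and 0.883% of all genes tested. For the combination, 0 of 10 were called higher and 1 lower, beside 0.756% and 2.71% of all genes. With GRN163L no gene of any kind was called (0% of 12570, the smallest adjusted p being 0.201). There 5 of the 10 and 595 of all genes (4.73%) had an unadjusted p below 0.05. With the experiment as a block, 2 of 10 were called higher with LY2784544 (ASNS and PSAT1, background 0.788%), and with the combination 1 was called higher (PSPH, 2.84%) and 1 lower (ALDH18A1, 8.15%). Both treated arrays lay above both controls in 7 of 10 genes with LY2784544 (17% of all genes), in 7 with GRN163L (17.5%) and in 5 with the combination (21.5%). Both lay below in 1 of 10 in each comparison, namely ALDH18A1 (25.2%, 16.4% and 32.2% of all genes). With the array medians set equal, both lay above in 8, 7 and 7 genes (28.3%, 16.5% and 36.9%) and below in ALDH18A1 alone (16.5%, 17.4% and 19.1%). Values below are log2 RMA signals or differences between them, so a difference of 1 is a doubling.

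The median change of the 10 genes was 0.49 for LY2784544, 0.64 for GRN163L and 0.35 for the combination. Over all genes tested the medians were -0.04, 0.005 and -0.065. The 10 were selected with results of these data known, so these medians are descriptions. Single arrays move them. Leaving out the experiment 2 control gave 0.3775 for GRN163L and 0.2025 for the combination, and leaving out the experiment 1 control gave 0.9075 and 0.615. LY2784544 stayed at 0.40 to 0.575 with any 1 array left out. The arrays differed in the median of the tested genes, which lay between 7.23 and 7.51. Setting the arrays to one median would add 0.103 to every difference of LY2784544 from control and 0.175 to every difference of the combination from control, and would take 0.015 from those of GRN163L. Of 9 markers of the erythroid and megakaryocytic identity of HEL, 8 were measured and all had mean signals between 6.91 and 11.2. Their mean level per array spanned 9.39 to 9.57 for control, 9.60 to 9.67 for LY2784544, 9.30 to 9.61 for GRN163L and 9.64 to 9.75 for the combination. PF4, a platelet chemokine gene of megakaryocytes and the dimmest of the 8, gave 6.11 and 6.27 for control, 7.05 and 7.53 for LY2784544, 6.01 and 6.08 for GRN163L and 7.69 and 8.52 for the combination. It was higher on the 4 arrays with LY2784544 than on the other 4, a split whose share of all genes was not counted. The part of PF4 in the results was not tested. The 8 markers did not move together. From control to the combination the mean of PF4 went from 6.19 to 8.105 and that of EPOR from 8.44 to 8.70. GATA1 went from 10.495 to 10.30 and KLF1 from 9.275 to 8.935. TAL1 and ITGA2B had slightly higher means, GFI1B and GP9 slightly lower ones. With LY2784544 the means of GATA1, EPOR and GP9 were below control, and those of TAL1, KLF1, GFI1B, ITGA2B and PF4 above it. Of 12 markers of other cell types 11 were measured, and 7 of these lay below the filter level of 4.37. The exception in signal was the lysozyme gene LYZ, at 10.3 to 10.7. The signals are averages over a culture, so fewer cells with a transcript and less of it per cell cannot be told apart.

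**Figure D1:**
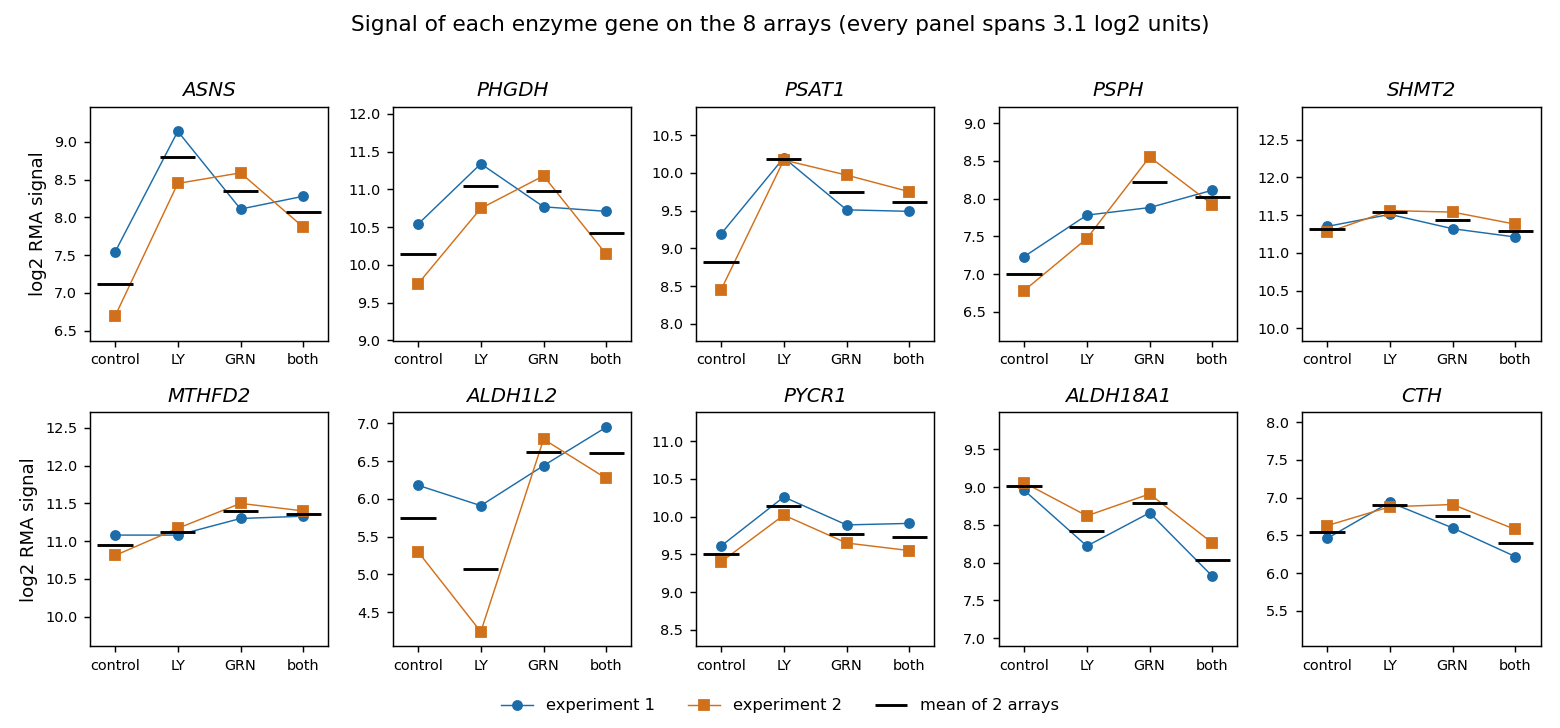
Signal of each of the 10 genes (vertical axis, log2 RMA signal, each panel spanning 3.1 units) on the control, LY2784544 (LY), GRN163L (GRN) and combination (both) arrays. Circles and squares are experiments 1 and 2, thin lines join the arrays of 1 experiment, and black bars are means of 2 arrays. ASNS, PSAT1 and PSPH lie above both controls on all 6 treated arrays, ALDH18A1 lies below both, and ALDH1L2 has its lowest value, 4.24, with LY2784544 in experiment 2.

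ASNS, the enzyme of asparagine synthesis, had signals of 7.54 and 6.69 on the control arrays of experiments 1 and 2. LY2784544 gave 9.14 and 8.45, GRN163L 8.11 and 8.59, and the combination 8.28 and 7.87. Every treated array lay above both controls. The means ± SD (n = 2) ordered the groups as control (7.115 ± 0.60), combination (8.075 ± 0.29), GRN163L (8.35 ± 0.34) and LY2784544 (8.795 ± 0.49). The arrays of the combination and GRN163L overlapped, as did those of GRN163L and LY2784544, whereas both combination arrays lay below both LY2784544 arrays. The difference from control was 3.2-fold with LY2784544 (log2 1.68, SE 0.33, limma adjusted p = 0.0582), just outside the threshold. With a block for the experiment it passed (adjusted p = 0.0235). With GRN163L the difference was 1.235 (SE 0.33, adjusted p = 0.827) and with the combination 0.96 (SE 0.33, adjusted p = 0.135), and neither was called with the block or without it.

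The genes of the serine pathway stood in the order of its steps as follows. PHGDH, the dehydrogenase that commits 3-phosphoglycerate to serine, was at 10.54 and 9.75 in control and 11.34 and 10.75 with LY2784544. GRN163L gave 10.77 and 11.18, the combination 10.71 and 10.14. Both single agents had both arrays above both controls, and the combination overlapped control. The log2 differences from control were 0.90 with LY2784544 (SE 0.32, limma adjusted p = 0.269), 0.83 with GRN163L (SE 0.32, adjusted p = 0.995) and 0.28 with the combination (95% interval -0.46 to 1.02). None was called. LY2784544 and GRN163L differed from each other by 0.07, less than the spread between their arrays.

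PSAT1, the transaminase of the following step, was at 9.19 and 8.45 in control and at 10.20 and 10.17 with LY2784544. GRN163L gave 9.51 and 9.97, and the combination 9.49 and 9.75. All treated arrays lay above both controls, the LY2784544 arrays were above all others, and those of GRN163L and the combination overlapped. The share of all genes with this order was not counted. PSAT1 rose with LY2784544, from 8.82 ± 0.52 to 10.185 ± 0.02 (SD, n = 2; log2 change 1.365, SE 0.26, limma adjusted p = 0.0472). The rise was 1.01 in experiment 1 and 1.72 in experiment 2. The call lies close to the threshold. It was lost when either control array, either LY2784544 array or either GRN163L array was left out, with changes of 0.995 to 1.735 and adjusted p of 0.0598 to 0.171. Against control, GRN163L stood at 0.92 (SE 0.26, adjusted p = 0.877) and the combination at 0.80 (SE 0.26, adjusted p = 0.119).

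PSPH, the phosphatase that releases serine, was higher relative to control with GRN163L than with LY2784544. Control stood at 7.23 and 6.78, LY2784544 at 7.78 and 7.47, GRN163L at 7.88 and 8.55, and the combination at 8.11 and 7.92. Groups with GRN163L overlapped each other, and both lay above the LY2784544 arrays, which lay above control. The share of all genes with this order was not counted. The difference from control was 1.21 with GRN163L (SE 0.25, limma adjusted p = 0.588), 1.01 with the combination (SE 0.25, adjusted p = 0.0668) and 0.62 with LY2784544 (SE 0.25, adjusted p = 0.345). With a block for the experiment the combination passed (adjusted p = 0.0416), and it also passed with the array medians set equal (1.185, adjusted p = 0.0472). The other probe set named for PSPH gave differences of 1.325 for the combination, 1.12 for GRN163L and 0.805 for LY2784544. PSPH has near-identical copies in the genome, so the share of the signal that comes from the gene itself is uncertain.

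The mitochondrial folate genes differed in pattern from each other. SHMT2, which turns serine into glycine and a one-carbon unit, gave 11.35 and 11.27 for control, 11.51 and 11.56 for LY2784544, 11.32 and 11.54 for GRN163L and 11.21 and 11.38 for the combination. Its span over the arrays was the narrowest of the 10 genes. Its log2 differences from control had 95% intervals of -0.13 to 0.58 for LY2784544, -0.24 to 0.48 for GRN163L and -0.37 to 0.34 for the combination, which leave out a doubling in each case.

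MTHFD2, the dehydrogenase and cyclohydrolase of the mitochondrial folate pathway, gave 11.08 and 10.81 for control, 11.08 and 11.17 for LY2784544, 11.30 and 11.50 for GRN163L, and 11.33 and 11.40 for the combination. The 4 arrays with GRN163L, alone or combined, lay above the 4 without it, and the share of all genes so split was not counted. The differences from control were 0.455 with GRN163L (SE 0.16, limma adjusted p = 0.995), 0.42 with the combination (SE 0.16, adjusted p = 0.174) and 0.18 with LY2784544 (SE 0.16, adjusted p = 0.702), none called. A further probe set named for MTHFD2 gave 0.505, 0.55 and 0.205.

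ALDH1L2, the mitochondrial enzyme that oxidises 10-formyl-tetrahydrofolate, had the widest span, from 4.24 to 6.95. Control stood at 6.18 and 5.30, LY2784544 at 5.91 and 4.24, GRN163L at 6.44 and 6.79 and the combination at 6.95 and 6.27. As for MTHFD2, the 4 arrays with GRN163L lay above the 4 without it. The split was narrow, 6.27 for the combination in experiment 2 against 6.18 for control in experiment 1, and its share of all genes was not counted. ALDH1L2 and ALDH18A1 were the genes of the 10 with a lower mean in LY2784544 than in control. The log2 difference from control was -0.665 for LY2784544 (SE 0.51, limma adjusted p = 0.645), 0.875 for GRN163L (SE 0.51, adjusted p = 0.995) and 0.87 for the combination (SE 0.51, adjusted p = 0.339). The lowest array, at 4.24, was below the filter level of 4.37, where RMA compresses differences. The combination stood 1.535 above LY2784544 (SE 0.51, adjusted p = 0.244), by 1.04 and 2.03 in the 2 experiments, and LY2784544 stood 1.54 log2 units under GRN163L (SE 0.51, adjusted p = 0.2), neither of which was called.

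The enzymes of proline synthesis had differences of opposite sign. PYCR1, the mitochondrial reductase of the last step, gave 9.61 and 9.40 for control, 10.26 and 10.02 for LY2784544, 9.89 and 9.65 for GRN163L and 9.91 and 9.55 for the combination. The LY2784544 arrays were above all others, a split whose share of all genes was not counted. The difference of PYCR1 from control with LY2784544 was 0.635 (SE 0.19, limma adjusted p = 0.181), at 0.65 and 0.62 in the 2 experiments. With a block for the experiment it was just outside the threshold (adjusted p = 0.0507). The corresponding values were 0.265 for GRN163L and 0.225 for the combination.

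ALDH18A1, which makes the first committed intermediate of proline from glutamate, was at 8.96 and 9.06 in control and at 8.22 and 8.62 with LY2784544. It was at 8.66 and 8.91 with GRN163L and at 7.82 and 8.26 with the combination. All 6 treated arrays lay below both controls, and those of LY2784544 and the combination overlapped. ALDH18A1 fell with the combination, from 9.01 ± 0.07 to 8.04 ± 0.31 (SD, n = 2; log2 change -0.97, SE 0.21, limma adjusted p = 0.0456). The fall was present in both experiments, at -1.14 and -0.80. With the array medians set equal it was -0.795 and no longer called (adjusted p = 0.0588). The call was also lost without either control array, either GRN163L array or the combination array of experiment 1 (-1.02 to -0.75, adjusted p 0.0865 to 0.222). LY2784544 alone stood at -0.59 (SE 0.21, adjusted p = 0.266), GRN163L alone at -0.225 (SE 0.21, adjusted p = 0.995), and the combination against GRN163L at -0.745 (SE 0.21, adjusted p = 0.175), none called. The last was just outside the threshold with a block for the experiment (limma adjusted p = 0.0505).

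CTH, the lyase that ends transsulfuration, gave 6.46 and 6.63 for control, 6.94 and 6.88 for LY2784544, 6.60 and 6.91 for GRN163L, and 6.22 and 6.58 for the combination. The LY2784544 arrays lay above control, and the GRN163L and combination arrays each overlapped control. Differences from control were 0.365 with LY2784544 (SE 0.19, limma adjusted p = 0.452), 0.21 with GRN163L (SE 0.19, adjusted p = 0.995) and -0.145 with the combination (SE 0.19, adjusted p = 0.674), the last turning to 0.03 with equal array medians.

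**Figure D2:**
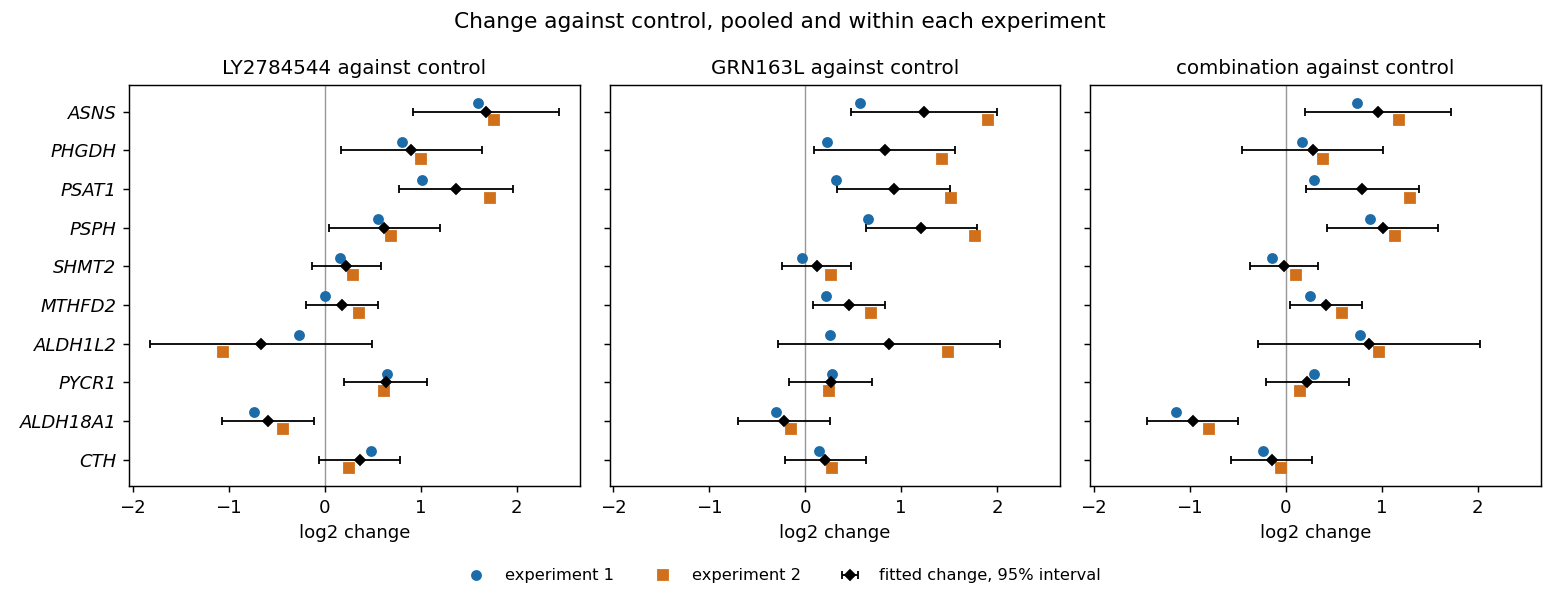
Log2 change against control (horizontal axes) of the 10 genes for LY2784544, GRN163L and the combination. Diamonds with bars are the fitted changes with 95% intervals, and circles and squares are the changes within experiments 1 and 2. With GRN163L the experiment 2 change of ASNS, PHGDH, PSAT1 and PSPH is 1.43 to 1.90 against 0.23 to 0.65 in experiment 1, while with LY2784544 the experiments lie closer together for these 4 genes.

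The 2 experiments differed in how far GRN163L stood from control. Its median difference over the 10 genes was 0.245 in experiment 1 and 1.06 in experiment 2, against 0.515 and 0.49 for LY2784544 and 0.275 and 0.49 for the combination. For ASNS the GRN163L difference was 0.57 and then 1.90, for PHGDH 0.23 and 1.43, for PSAT1 0.32 and 1.52, and for PSPH 0.65 and 1.77. The larger size in experiment 2 was seen with GRN163L in 8 of 10 genes, and in 61.6% of all genes tested. It was not confined to GRN163L, being seen with LY2784544 in 7 of 10 (33.3%) and with the combination in 6 of 10 (40%). All these differences are taken from the same control arrays. On the control arrays 8 of 10 genes were lower in experiment 2 than in experiment 1, with a median difference over the 10 of -0.36, and on the GRN163L arrays 9 of 10 were higher, with a median difference of 0.33. Over all genes the medians of these differences were 0.01 and 0. The share of all genes lower in experiment 2 was 48.3% in control and 48.8% with GRN163L. On the LY2784544 arrays 7 of 10 genes were lower in experiment 2 (45.7% of all genes), with a median difference of -0.15. On the combination arrays 5 of 10 were lower (42.1%), with a median of -0.06. Over all genes these medians were 0.03 and 0.06. The cause of the difference between the experiments was not tested.

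Whether the agents added up was asked by the interaction, which is the effect of GRN163L in the presence of LY2784544 minus its effect without it, on the log2 scale. The combination lay below LY2784544 on both arrays in 6 of the 10 genes, ASNS, PHGDH, PSAT1, SHMT2, PYCR1 and CTH (background 22.8% of all genes), and above it in 3, PSPH, MTHFD2 and ALDH1L2 (18.9%). Against GRN163L the combination had the lower mean in all 10 (61.6% of all genes), and lay lower on both arrays in 3, PHGDH, ALDH18A1 and CTH (31.3%). These counts move with the array medians, since setting them equal adds 0.0725 to each difference of the combination from LY2784544 and 0.19 to each difference from GRN163L. With equal medians the combination lay below LY2784544 on both arrays in 3 genes, PSAT1, SHMT2 and CTH (17.4% of all genes), and above it in the same 3 as before (24.8%). Against GRN163L it then had the lower mean in 5 of 10, ASNS, PHGDH, PSPH, ALDH18A1 and CTH (35.6%), and lay lower on both arrays in ALDH18A1 alone (14.7%). No gene of these comparisons was called among the 10, beside 0.31% and 0.541% of all genes. The interaction was negative in 9 of 10 genes, with equal medians too (54.5% and 40.8% of all genes), and positive in ALDH1L2 at 0.66 (SE 0.72). Its values were -1.955 for ASNS (SE 0.47, limma adjusted p = 0.731), -1.485 for PSAT1 (SE 0.37, adjusted p = 0.745) and -1.45 for PHGDH (SE 0.46, adjusted p = 0.999). None of the 10 nor any other gene was called (0% of 12570), with the block or without it, while 5 of 10 genes had an unadjusted p below 0.05, beside 3.69% of all genes. These 5 were ASNS, PHGDH, PSAT1, PYCR1 and CTH.

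The same 5 genes were higher with GRN163L than with control in both experiments and lower with the combination than with LY2784544 in both, a pattern shown by 5.63% of all genes. Such a pattern makes the interaction negative by its definition, so it is not a separate observation. With the array medians set equal the 5 kept it (3.49% of all genes). For ASNS, adding GRN163L to vehicle gave 0.57 and 1.90, and adding it to LY2784544 gave -0.86 and -0.58. For PSAT1 the values were 0.32 and 1.52 and then -0.71 and -0.42. PSPH, MTHFD2 and ALDH1L2 were higher with GRN163L in both settings and both experiments. Taken from the side of LY2784544, PHGDH, PSAT1, SHMT2 and CTH were higher with it than with control and lower when it was added to GRN163L, in both experiments (4.97% of all genes). With equal medians CTH was the only gene of these 4 to keep that pattern (2.75%). ALDH18A1 was lower in each of these settings.

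**Figure D3:**
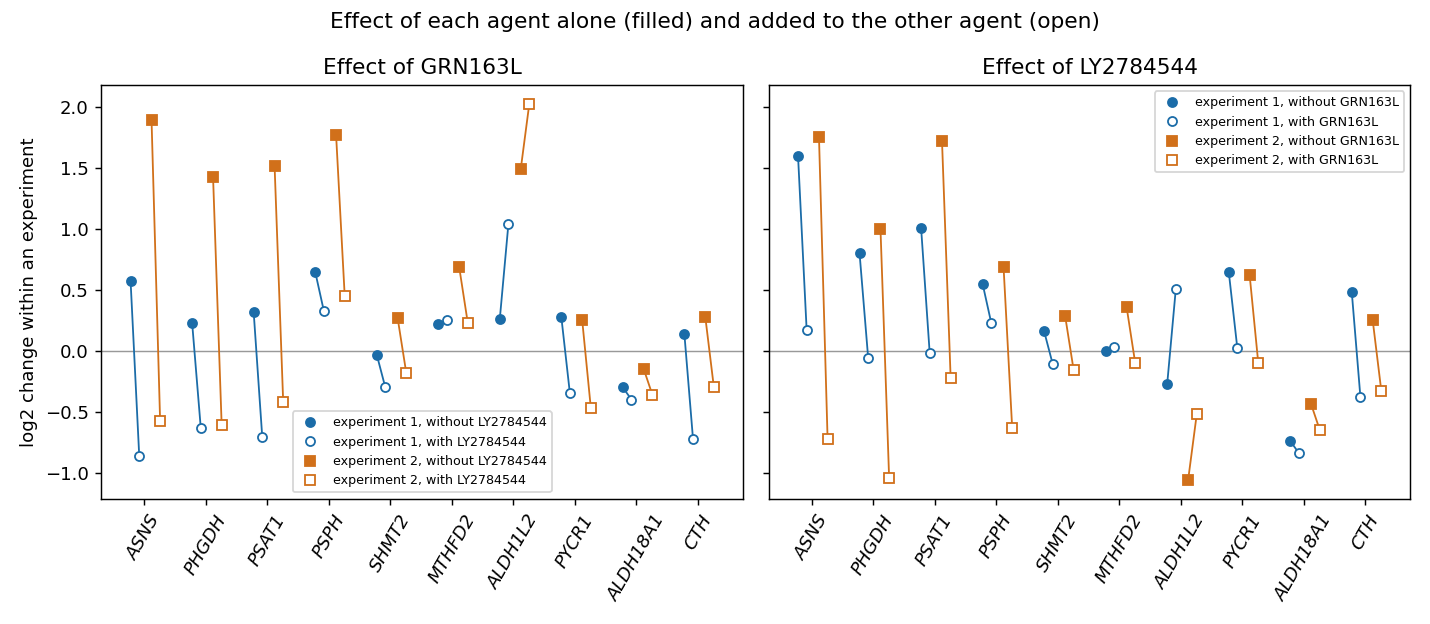
Log2 change within each experiment (vertical axis) when GRN163L (left) or LY2784544 (right) was given without the other agent (filled) or on top of it (open), for the 10 genes. Circles and squares are experiments 1 and 2. In the left panel ASNS, PHGDH, PSAT1, PYCR1 and CTH cross from above 0 to below 0 in both experiments, whereas PSPH, MTHFD2 and ALDH1L2 stay above 0.

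LY2784544 and GRN163L were also set against each other directly. PSAT1 and PYCR1 were higher with LY2784544 on both arrays (background 17.6%), by 0.445 and 0.37. PSPH, MTHFD2, ALDH1L2 and ALDH18A1 were lower on both arrays (27.8%), with differences of -0.59, -0.275, -1.54 and -0.365. With equal array medians 4 were higher on both arrays, PSAT1, SHMT2, PYCR1 and CTH (29.8%), and 2 lower, MTHFD2 and ALDH1L2 (18.4%). No member was called, beside 0.231% of all genes called higher and 0.819% called lower.

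Of 40 further enzymes that use or supply the same amino acids and folates, 30 had a probe set of their own here and 26 passed the filter. None was called against control in the 3 comparisons. With LY2784544 11 of 26 were higher and 15 lower, with a median of -0.10, with GRN163L 17 and 9 with a median of 0.065, and with the combination 9 and 17 with a median of -0.21. The medians of the 10 enzymes above were 0.49, 0.64 and 0.35, those of GRN163L and the combination ranging over 0.3775 to 0.9075 and 0.2025 to 0.615 with 1 array left out. OAT, the mitochondrial aminotransferase that interconverts ornithine and glutamate semialdehyde, on the branch shared with proline synthesis, was the only one called in any comparison. It was at 9.31 and 9.36 with LY2784544 and at 10.42 and 10.34 with GRN163L (log2 difference -1.045, SE 0.16, limma adjusted p = 0.0238), while control stood at 10.26 and 9.94 and the combination at 9.56 and 9.55. All 4 arrays with LY2784544, alone or combined, lay below the other 4, and the share of all genes so split was not counted. With the experiment as a block OAT was also called in LY2784544 against control (-0.765, adjusted p = 0.0369, against 0.0699 without it) and in the combination against GRN163L (-0.825, adjusted p = 0.038, against 0.0776), 1 of 26 called lower in each, beside 1.96% and 1.44% of all genes.

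CBS, which makes the cystathionine that CTH cleaves, gave 9.32 and 8.30 for control, 10.28 and 9.38 for LY2784544, 9.72 and 10.33 for GRN163L and 9.78 and 8.71 for the combination. Its difference of 1.215 with GRN163L (SE 0.46, limma adjusted p = 0.995) was 0.40 in experiment 1 and 2.03 in experiment 2, a split like that of ASNS, and a near-identical copy of CBS makes its signal uncertain. MTHFD2L, a close relative of MTHFD2, differed from control by 0.895 with the combination (SE 0.22, adjusted p = 0.0599) and passed with the block (adjusted p = 0.0326). So did GOT2, the mitochondrial aspartate aminotransferase (-0.54, adjusted p = 0.0423 with the block and 0.109 without), and GSS, glutathione synthetase (-0.575, adjusted p = 0.0406 and 0.104). These block calls, 1 higher and 2 lower of 26 (3.85% and 7.69%), lie near the 2.84% and 8.15% of all genes. Other genes among the 4 smallest p were not called. For LY2784544 these were GOT1, the cytosolic aspartate aminotransferase (0.335), MTR, methionine synthase (-0.39), and GSS (-0.395). For GRN163L they were the mitochondrial formyl-tetrahydrofolate synthetase gene MTHFD1L (0.41), GCLC, of glutathione synthesis (0.54), and BCAT1, a branched-chain aminotransferase (0.33).

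Among 15 regulators, of which 14 passed the filter, none was called in any comparison. ATF4 transcript gave 10.52 and 10.59 for control, 11.05 and 11.03 for LY2784544, 10.82 and 10.69 for GRN163L and 11.03 and 10.90 for the combination. Every treated array was above both controls, a split whose share of all genes was not counted. A further probe set is named for ATF4, and its values are not given here. The ATF4 differences were 0.485 (SE 0.15, limma adjusted p = 0.188), 0.20 (adjusted p = 0.995) and 0.41 (adjusted p = 0.148). ATF4 is controlled largely in translation, which these arrays do not measure. The stress-induced factor DDIT3 differed from control by 0.53, 0.395 and 0.10 in that order of groups. For ATF5 these differences were 1.375 (SE 0.36, limma adjusted p = 0.126), 0.57 and 0.80, the first being the largest among the 14 regulators. That first difference was 2.19 in experiment 1 and 0.56 in experiment 2. CEBPG stood at 0.625, 0.65 and 0.65. Both genes had every treated array above both controls, and the share of all genes so split was not counted. ATF5 and CEBPG are named here after their values were seen. TRIB3 is a pseudokinase that ATF4 induces and that restrains it. It was lower with the combination than on every other array, at 6.40 and 6.54, against 6.73 and 7.30 in control (log2 difference -0.545, adjusted p = 0.182). The share of all genes so placed was not counted, and both combination arrays lay below both controls in 32.2% of all genes. MYC differed from control by -0.135, -0.135 and -0.25. With the block 1 of the 14 was called lower in the combination (7.14%, beside 8.15% of all genes), EIF2AK2, which encodes the eIF2α kinase PKR and is named here after its value was seen (-0.545, adjusted p = 0.0449, against 0.163 without it).

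**Figure D4:**
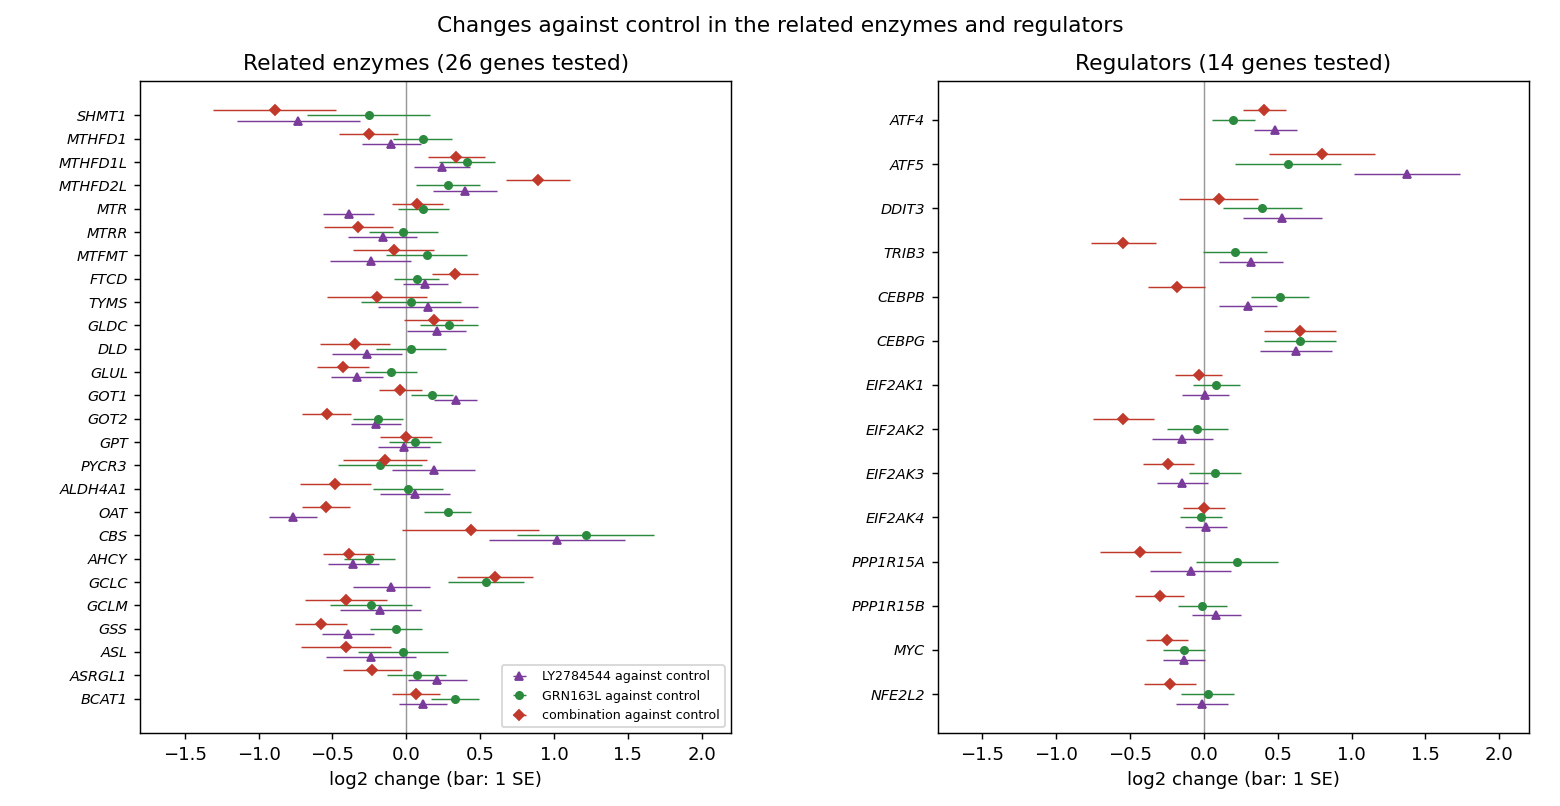
Log2 change against control (horizontal axes, bars 1 SE) of 26 related enzymes (left) and 14 regulators (right) for LY2784544 (triangles), GRN163L (circles) and the combination (diamonds). OAT lies at -0.765 with LY2784544 and 0.28 with GRN163L, CBS at 1.02 and 1.215, and ATF4 above 0 in all 3 comparisons.

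The genes whose profile over the 8 arrays was nearest to the mean profile of the 10 were TSEN15, SNORA14B, TTC39B, MIR99AHG and DSTYK. Likeness was the root mean square difference between values centred on each gene's mean, which was 0.0761 to 0.121 for these 5 and had a median of 0.348 over all other genes. The mean profile itself spanned 0.945. None of these 5 genes was called in any comparison with control. Of the 10 enzymes, MTHFD2 (0.181) and SHMT2 (0.222) lay nearest to the mean profile, and ALDH18A1 (0.555) and ALDH1L2 (0.747) farthest from it. Like ALDH18A1 and ALDH1L2, ASNS (0.461) and PSAT1 (0.3515) lay farther from it than the median of 0.348, so the mean profile describes these genes poorly.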

How the data were processed

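The authors deposited log2 signals per probe set, made with RMA in Affymetrix Expression Console per the submitters' processing notes. RMA quantile-normalizes arrays and compresses differences at low signal. Log base 2 was taken from the range, with version and build not given in the sources used here. Of 33297 probe sets 19181 named 1 gene, 2055 several, and 12061 were not in the annotation. The highest-mean probe set stood for its gene, and genes at or under the 30th percentile (4.37) were left out.

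Group means were fitted over all 8 arrays with limma 3.58.1 in R 4.3.3 (4 residual and 4.65 prior degrees of freedom; tested on simulated data), with Benjamini-Hochberg adjustment within each of 7 comparisons. The labels name each array's experiment, which pairs the arrays, and deviations from group means correlated across genes by 0.103 to 0.674 within an experiment. The fit with this block is given where it changes a call. At most 1.9% of values were equal between any 2 arrays. The number of arrays limits the precision.

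The 10 genes and the lists were chosen with earlier results of these data known. Named besides the 10 are related enzymes that were called or among the 4 smallest p in a comparison with control, ATF4, DDIT3, TRIB3 and MYC, and the 5 genes of nearest profile. LYZ, ATF5, CEBPG, EIF2AK2 and the single markers of HEL identity were named after their values were seen. Alternatives were the block, filters, scalings, moderation, probe set choice, compared groups alone and leaving out each array.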

Additional observations from a re-analysis of the deposited data

Results flagged for a closer look

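In some of the 10 genes the effect of an agent was positive without the other agent and negative with it, in both experiments. For GRN163L this held in 5 (5.63% of all genes), for LY2784544 in 4 (4.97%) and for both agents in 3 (1.68%). Each gene is given with the interaction on the log2 scale, which limma tested and called for none of them. The pattern makes the interaction negative by its definition. Adding GRN163L was positive without LY2784544 and negative with it for ASNS (interaction -1.955, adjusted p = 0.731), PSAT1 (-1.485, adjusted p = 0.745), PHGDH (-1.45, adjusted p = 0.999), CTH (-0.72, adjusted p = 0.999) and PYCR1 (-0.675, adjusted p = 0.999). Adding LY2784544 was positive without GRN163L and negative with it for PSAT1, PHGDH and CTH, with the same interactions, and for SHMT2 (-0.36, adjusted p = 0.999). With the array medians set equal the first pattern was kept by all 5 of its genes (3.49% of all genes) and the second by CTH alone (2.75%). For PSAT1 the negative side was small, at -0.02 and -0.22, and for PHGDH it was -0.06 and -1.04. With the experiment as a block the smallest of these adjusted p was 0.357, for ASNS.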

How the results depend on the processing

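No change of a called gene reversed its sign under any of the 17 alternatives, of which the replicate block together with median normalization was chosen after seeing the data. For LY2784544 against control, where 1 gene was called, the replicate block, median normalization and the mean-variance trend each gave 2 (ASNS and PSAT1), the block with median normalization gave 3 (PYCR1 added), and no filter, the 50th percentile filter and the fit of the compared groups gave 0. Leaving out 1 array gave 0 to 2. For the combination against control, where 1 was called, the paired fit with the replicate block gave 2, no filter and the compared groups 0, and the block with median normalization 5 (ASNS, PSAT1, PSPH and MTHFD2 higher, ALDH18A1 lower). Leaving out 1 array gave 0 to 1. Median normalization kept the count at 1 but called PSPH in place of ALDH18A1. Over all genes it split the combination's calls into 174 higher and 184 lower, against 95 and 341, and those of LY2784544 into 63 and 89, against 49 and 111. The counts of 0 in the other 5 comparisons stayed at 0 in each alternative run, and the interaction could not be fitted on compared groups alone. The block changed no other call among the 10. The median change with LY2784544 was 0.595 under median normalization, with or without the block, 0.574 under quantile normalization, and 0.40 to 0.575 with 1 array left out. That of the combination was 0.525 under median normalization, with or without the block, and 0.2025 to 0.615 with 1 array left out. That of GRN163L was 0.3775 to 0.9075. With 2 arrays in a group, leaving one out takes the lone array to vary like the other groups. Causes of lost calls were not tested.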
